A study of Mus musculus with 8 samples.

Results

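Il6, Il15 and Il15ra, 2 cytokine genes and a cytokine receptor gene of dendritic cells, were examined for open chromatin before stimulation. The measurement was ATAC-seq, in which a transposase cuts and tags accessible DNA, so that peaks of reads mark open sites. Members were the 3 genes named, out of 21631 coding genes of the autosomes and X, and a site belonged to a member when a peak lay inside the gene or within 50 kb of its ends. By that rule 26 of 50950 peaks belonged to these loci in replicate 1 and 32 of 58319 in replicate 2, and they formed 32 sites. A site is called shared when peaks of both replicates overlap by at least 1 bp. All coordinates are those of mm10.

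Both ATAC-seq samples are unstimulated mouse CD8-positive dendritic cells, the only group with values here. The labels call the source splenic dendritic cells in one field and a cell line in another, and give no genotype, strain or age. The other 6 of the 8 samples are chromatin immunoprecipitations of IRF3 after poly(I:C), IRF5 after CpG oligonucleotide and IRF9 after interferon-beta, which were not analysed here. With 1 group and no reference condition, no test between conditions was possible, and the 2 samples give a value each. The labels do not tie them to separate cultures, so differences between them may be technical.

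IL-6 is a cytokine of the acute inflammatory response that dendritic cells release after Toll-like receptor stimulation. It binds IL-6 receptor alpha (Il6ra) and the signalling chain gp130 (Il6st), which act through Janus kinases and Stat3. IL-15 sustains natural killer cells and memory CD8 T cells. Dendritic cells hold it on their surface bound to IL-15 receptor alpha (Il15ra) and present it to neighbouring cells that carry the receptor chains Il2rb and Il2rg, a process called trans-presentation. Il15ra therefore acts in the cell that makes the cytokine, and lies beside Il2ra, the gene of the related alpha chain for IL-2.

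The promoter sequences below are shown because peaks of these cells cover some of their letters and leave others uncovered. They are taken from RefSeq (assembly GRCm38.p6, on the chromosomes of mm10), which had windows from 250 bases before to 50 after a start for 2 of the 3 members, 1 window for Il6 and 2 for Il15ra. A set of 6 motifs was searched on both strands. These were GAAA, any 2 bases and GAAA for the core of the interferon-stimulated response element, GGAA, any 2 bases and GAAA for the ETS-IRF composite, GGGA, any 2 bases and TTCC for NF-kB, TGACTCA for AP-1, TGACGTCA for the cAMP response element and TTGCNNAA for C/EBP. GAAANNGAA, a shorter form of the interferon element, was added after the sequences had been seen, and every match to the longer form also holds it. Capitals mark the matches. The Il6 stretch holds the 250 bases before the start, at chr5:30012864-30013113 on the plus strand. The Il15ra stretches are 30 bases each from the plus strand at the second annotated start, at chr2:11705671-11705700 and chr2:11705732-11705761.
Il6 promoter: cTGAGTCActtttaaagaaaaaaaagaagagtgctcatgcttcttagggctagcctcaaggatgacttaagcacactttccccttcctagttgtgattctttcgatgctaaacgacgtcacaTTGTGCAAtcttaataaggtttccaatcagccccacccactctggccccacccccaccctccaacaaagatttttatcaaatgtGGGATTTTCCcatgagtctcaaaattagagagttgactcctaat
Il15ra second start, AP-1 letters: ggtggggatgcTGAGTCAcagatctgtcac
Il15ra second start, interferon element letters: aagcaaaagcGAAAGCGAAtactccttagc

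Within the Il6 promoter the AP-1 letters (TGAGTCA, read on the minus strand as TGACTCA) lie at −249 to −243 from the start, the C/EBP letters (TTGTGCAA, matched on the minus strand) at −128 to −121 and the NF-kB letters (GGGATTTTCC) at −44 to −35. A peak covered the AP-1 and C/EBP letters in both replicates. It ran from −260 to −101 in replicate 1 and from −284 to −101 in replicate 2. The next peak began after the start, at 47 in replicate 1 and at 25 in replicate 2, so the NF-kB letters lay in the unlisted gap between the 2 peaks in both replicates. The reads in that gap are not in the lists, which give values for peaks only. At the second Il15ra start the AP-1 letters, at −30 to −24, lay outside every peak. GAAAGCGAA, at 30 to 38, lay inside a peak found only in replicate 2. At the first Il15ra start GAAANNGAA matched on the minus strand, at −149 to −141, outside every peak. In the 3 windows the letters of the longer interferon element, the ETS-IRF composite and the cAMP response element had no match. Of 32851 RefSeq promoter windows of the same length, 10.8% held the C/EBP letters, 5.20% those of AP-1, 1.47% those of NF-kB, 3.44% those of the interferon element, 2.72% those of the ETS-IRF composite, 1.79% those of the cAMP response element and 8.56% GAAANNGAA. Of the 3 windows 2 overlapped a shared region, that of Il6 and that of the first Il15ra start, beside 30.7% of the 32619 such windows on the autosomes and X. A match describes letters only and does not show a bound factor.

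All 3 genes had a shared site within 1 kb of an end, as did 47.8% of coding genes, and the sites around them were arranged differently. Il6 had 9 shared sites, of which 8 lay outside the gene. Il15 had 8, of which 7 lay inside it, counting the one that spans its end. Il15ra had 8, and only 1 lay inside the gene, at its start. The genes differ in length, with 6862 bp for Il6, 71629 bp for Il15 and 28814 bp for Il15ra. Of the peaks of replicate 1 in these windows, 26 of 26 had a partner in replicate 2, where the share over the whole list was 90.0%. Of those of replicate 2, 25 of 32 had a partner (78.1%), where the share over the whole list was 76.5%. All 7 sites without a partner were found in replicate 2, which is the deeper library by its genome-wide background of 1.28 reads per position, against 0.676 in replicate 1.

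**Figure D1:**
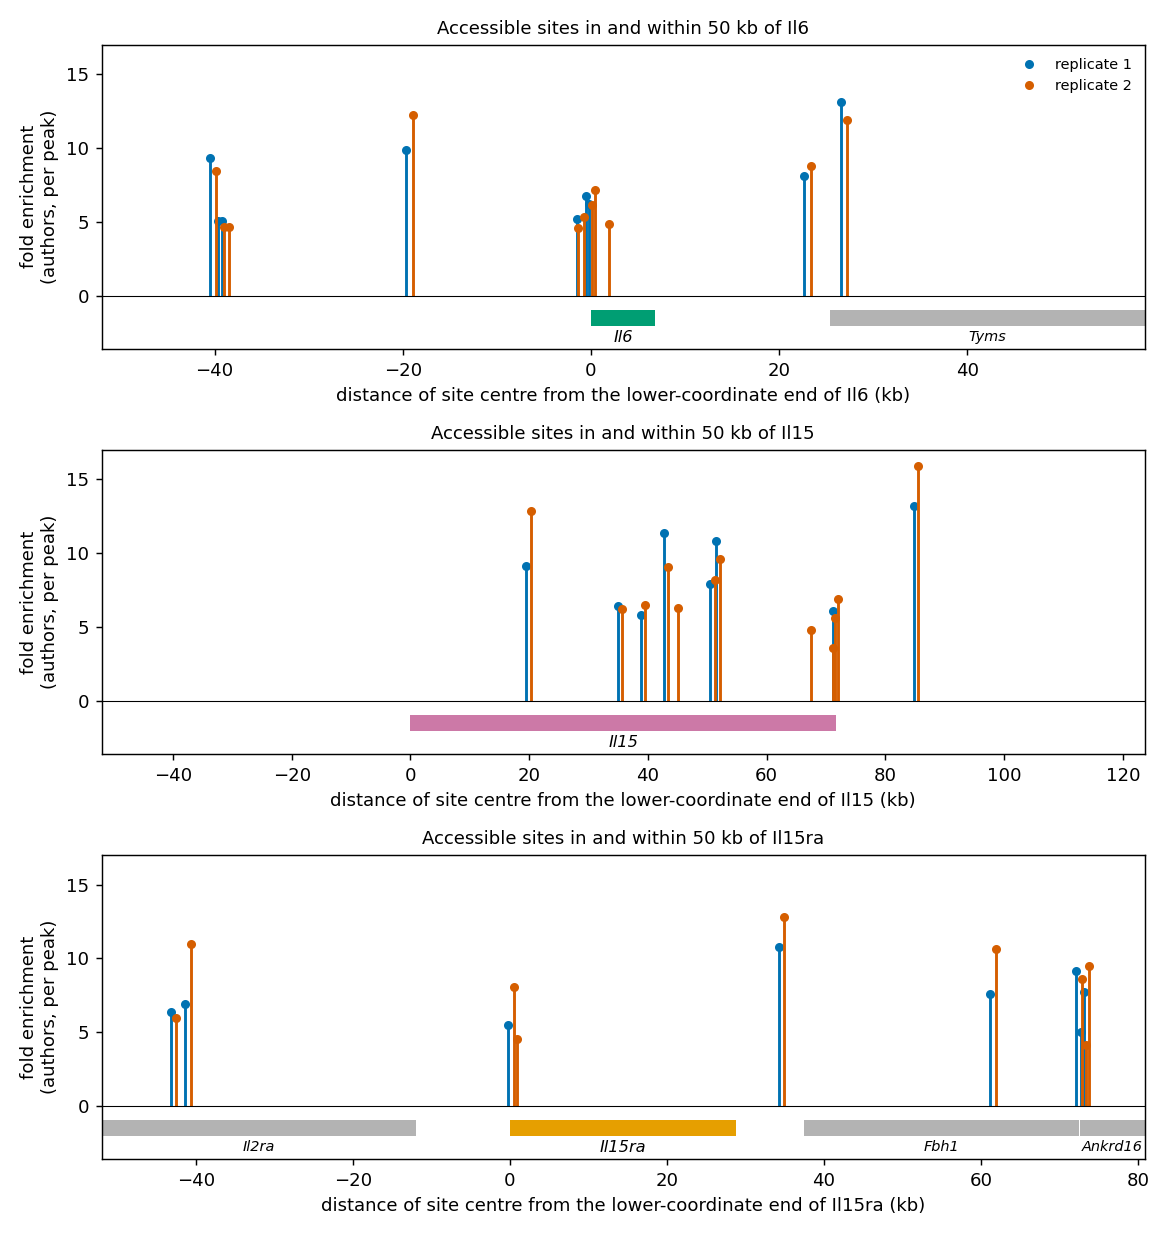
Fold enrichment of every peak in and within 50 kb of Il6, Il15 and Il15ra, by distance of the site's centre from the gene's lower-coordinate end (kb), for replicate 1 (blue) and replicate 2 (orange), drawn slightly apart for legibility; coloured bars are the members and grey bars neighbouring coding genes. Of the 8 shared Il15 sites 7 stand inside the gene, against 1 each for Il6 and Il15ra, which are shorter genes. The highest fold enrichment of each member stands outside its gene in both replicates.

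Fold enrichment is the authors' value for each peak, the reads at the summit over the local background of the same library, with 1 added to each. Summit reads were worked out from it and from the deposited p. The fold depends on the background around a site as well as on the reads at it.

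Il6 lies at chr5:30013114-30019975, and its start carried a pair of shared sites. The upstream one, chr5:30012830-30013013, was enriched 6.77-fold in replicate 1 and 6.12-fold in replicate 2. Its summit held 25 reads in replicate 1 (95% exact Poisson interval 16.2 to 36.9) and 30 in replicate 2 (20.2 to 42.8). The downstream one, chr5:30013139-30013366, lies inside the gene and had 6.21 and 7.13, with 23 and 35 reads. The order of the 2 sites thus turned between the replicates, and their read intervals overlap in each. Another shared site, chr5:30011934-30012097, was centred 1099 bp before the start, with fold enrichments of 5.21 and 5.31. Replicate 2 alone had 2 further weak peaks near the start. One was centred 1760 bp before it (fold enrichment 4.58) and the other 1622 bp after it, inside the gene (4.85), each with 22 reads. All 5 sites near the start also lie within A230098N10Rik, a long non-coding RNA gene that spans Il6, so they cannot be given to one gene rather than the other.

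The strongest sites of the Il6 window by fold enrichment stood away from the start. The site centred 19308 bp before the start, chr5:29993712-29993900, had 9.86 in replicate 1 and 12.2 in replicate 2. It held 21 and 35 reads, beside 25 and 30 at the upstream start site and 23 and 35 at the downstream one. Its local background was 1.23 reads in replicate 1 and 1.95 in replicate 2, against 2.84 and 4.06 at the upstream start site, so the higher fold went with a lower background at similar summit reads. About 40 kb before the start stood 3 shared sites within 2 kb of one another. The outermost, chr5:29972774-29973083, had 9.35 and 8.48, and the other two had 5.04 and 4.66 and 5.07 and 4.68. Beyond the other end of Il6, the site at chr5:30035992-30036264 (8.11 and 8.75) was nearer to Tyms, which encodes thymidylate synthase, with its centre 2418 bp from an end of that gene. The site at chr5:30039891-30040182 lay inside Tyms and was the strongest of the window in replicate 1 (13.1, with 11.9 in replicate 2). Without these 2, 7 shared sites had an end of Il6 as their nearest coding gene end.

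**Figure D2:**
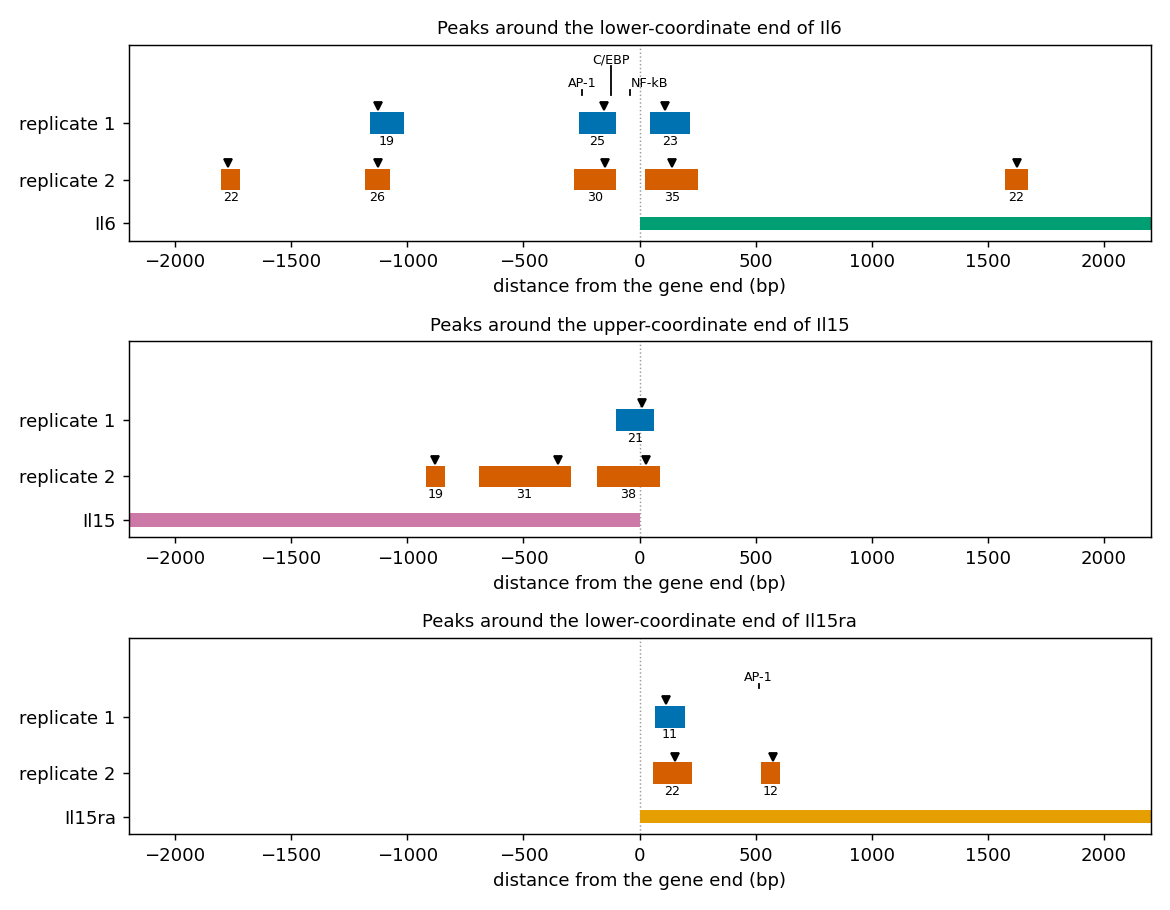
Peaks around the accessible end of each member, by distance from that end (bp), in replicate 1 (blue) and replicate 2 (orange); triangles mark summits, the number under each bar is its summit reads, the lowest bar is the gene, and ticks mark matches to the 6 motifs. Motifs were searched only in the promoter windows of Il6 and Il15ra, so the rest of the drawn stretch and the whole Il15 end were not searched. The NF-kB letters of Il6 fall between the peaks with 25 and 23 reads in replicate 1, and 3 peaks stand at the Il15 end in replicate 2, against 1 in replicate 1.

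Il15 lies at chr8:82331624-82403252 and had its accessible end at the higher coordinate. Its direction of transcription was not taken from any table used here. The shared site there, chr8:82403070-82403338, spans that end. It was enriched 6.10-fold in replicate 1 and 6.91-fold in replicate 2, with 21 and 38 reads and summits 9 and 28 bp beyond the end. Replicate 2 had 2 more peaks within 1 kb, inside the gene. One, chr8:82402559-82402955, had 5.64 and 31 reads, and the other, chr8:82402334-82402413, had 3.56 and 19 reads. No peak stood within 1 kb of the lower end, nor in the 50 kb below it.

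Inside Il15 the shared sites stood between 19889 and 51859 bp from the lower end, apart from the one at the upper end. The strongest by fold enrichment in replicate 1 was chr8:82374567-82374785, with 11.4 in replicate 1 and 9.06 in replicate 2. In replicate 2 it was chr8:82351412-82351614, with 9.13 in replicate 1 and 12.8 in replicate 2. A pair of neighbours 757 bp apart followed, chr8:82382394-82382568 with 7.88 and 8.17 and chr8:82383326-82383641 with 10.8 and 9.60. The weaker sites were chr8:82366831-82366926 with 6.39 and 6.21 and chr8:82370732-82370946 with 5.79 and 6.49. Replicate 2 alone had 2 more inside the gene, chr8:82376299-82376428 (6.29) and chr8:82398703-82398798 (4.83). The annotation used gives the outer ends of genes only, so exons and introns were not assigned.

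A single site outside Il15 had the highest fold enrichment of its window in both replicates. It lies at chr8:82416669-82416909, centred 13537 bp beyond the upper end, enriched 13.2-fold in replicate 1 and 15.9-fold in replicate 2, with 28 and 50 summit reads. Its score exceeded that of 96.4% of peaks in the list of replicate 1 and 99.3% in that of replicate 2. In replicate 1 chr8:82374567-82374785, inside the gene, had more summit reads, 38, and a score above that of 98.2% of peaks. The local background there was 2.43 reads, against 1.20 at the outside site. In replicate 2 the outside site led by reads and score too. No coding gene other than Il15 reaches into the window, and all 8 shared sites had an end of Il15 as their nearest coding gene end. Beyond the window the nearest shared regions were centred 140391 bp below the gene (7.76 and 8.95) and 317994 bp above it (8.35 and 13.4).

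Il15ra lies at chr2:11705172-11733985, and its start had the weakest shared end site of the 3 genes by summit reads. The site, chr2:11705231-11705395, covers the first annotated start at 11705293. It was enriched 5.50-fold in replicate 1 and 8.07-fold in replicate 2, with 11 reads (95% exact Poisson interval 5.49 to 19.7) and 22 reads (13.8 to 33.3). Its score exceeded that of 13.9% of peaks in the list of replicate 1 and 59.5% in that of replicate 2. The second annotated start, at 11705712, was covered in replicate 2 alone by chr2:11705695-11705775, with a fold enrichment of 4.51 and 12 reads, where the fewest of any listed summit of that replicate was 9. From there to the upper end the gene had no peak in either replicate.

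The remaining Il15ra sites lay nearer to other genes. The highest fold enrichment in both replicates was that of chr2:11739617-11739873 (10.8-fold in replicate 1 and 12.8-fold in replicate 2). Its centre lay 5760 bp beyond the upper end and 2828 bp from Fbh1, which encodes a DNA helicase. It held 18 and 32 summit reads over local backgrounds of 0.762 and 1.58 reads. One site lay inside Fbh1 (7.61 and 10.7), one spanned the neighbouring ends of Fbh1 and Ankrd16 (9.17 and 8.61), and a pair lay inside Ankrd16 (5.03 and 4.11, 7.71 and 9.47). The spanning site held more summit reads, 30 and 41, over backgrounds of 2.38 and 3.88. So did chr2:11778396-11778818 inside Ankrd16, with 25 and 45 over 2.37 and 3.86. Below the gene, a pair stood inside Il2ra. They were chr2:11662239-11662364 with 6.39 and 5.97 and chr2:11664108-11664244 with 6.93 and 11.0. The coding gene Gm46731, within Fbh1, had no site inside it. When each site was given to its nearest coding gene end, 1 of the 8 shared sites was left to Il15ra.

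The members' site numbers were above the middle of all coding genes without being extreme. Coding genes had a median of 5 shared regions inside or within 50 kb (quartiles 1 and 8), and 79.5% had at least 1. As many as the 9 of Il6, or more, were found at 22.7% of coding genes, and as many as the 8 of Il15 and of Il15ra, or more, at 28.7%. Inside the gene the picture differed between members. With 7, Il15 reached a number that 3.03% of coding genes had or passed, whereas Il6 and Il15ra had 1 each, which 57.5% had or passed. Il15 is 71629 bp long, against 6862 bp for Il6 and 28814 bp for Il15ra. Per 10 kb of gene, Il6 had 1.46 shared regions, Il15 0.977 and Il15ra 0.347, against a median of 0.224 over coding genes, so the order of Il6 and Il15 turns when length is taken into account. The value of Il6 rests on 1 site.

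**Figure D3:**
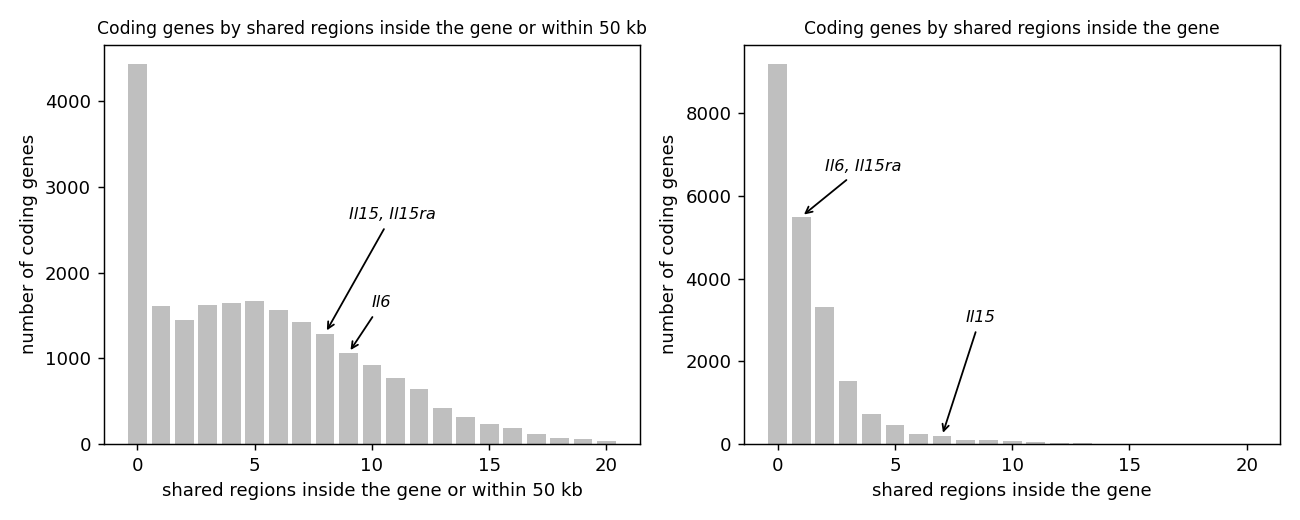
Number of coding genes (of 21631) by the number of shared regions inside the gene or within 50 kb (left) and inside the gene alone (right), drawn up to 20 regions; arrows mark the members. In the left plot the members stand at 8 and 9 beside a median of 5, and in the right plot Il15 stands at 7 while Il6 and Il15ra stand at 1.

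Between the replicates, summit reads at the 25 shared sites differed by about as much as in shared regions at large. The ratio of replicate 2 to replicate 1 had a median of 1.50 over these sites, from 1.18 to 2.33, against a median of 1.44 (quartiles 1.22 and 1.68) over all 44365 shared regions. The exact binomial 95% interval of the ratio held 1.44 at 25 of the 25 sites. It held 1.89, the ratio of genome-wide backgrounds, at 24. The exception was chr8:82374567-82374785 inside Il15, with 38 and 45 reads and an interval of 0.752 to 1.87. The widest ratio was that of chr8:82351412-82351614, also inside Il15, with 18 and 42 reads and an interval of 1.31 to 4.31. At such read numbers the intervals are wide, as from 0.592 to 3.09 at chr5:29973759-29973866. How many of all shared regions have an interval that holds either ratio was not worked out. The counts of 25 and 24 sites thus have no background beside them. Summits of the replicates were 55 bp apart at most, with a median of 17 bp. Fold enrichments had a Spearman rho of 0.85 over the 25 sites, which come from the same 2 libraries. Intervals cover counting error only, since copies of one molecule cannot be told from separate molecules in these lists.

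**Figure D4:**
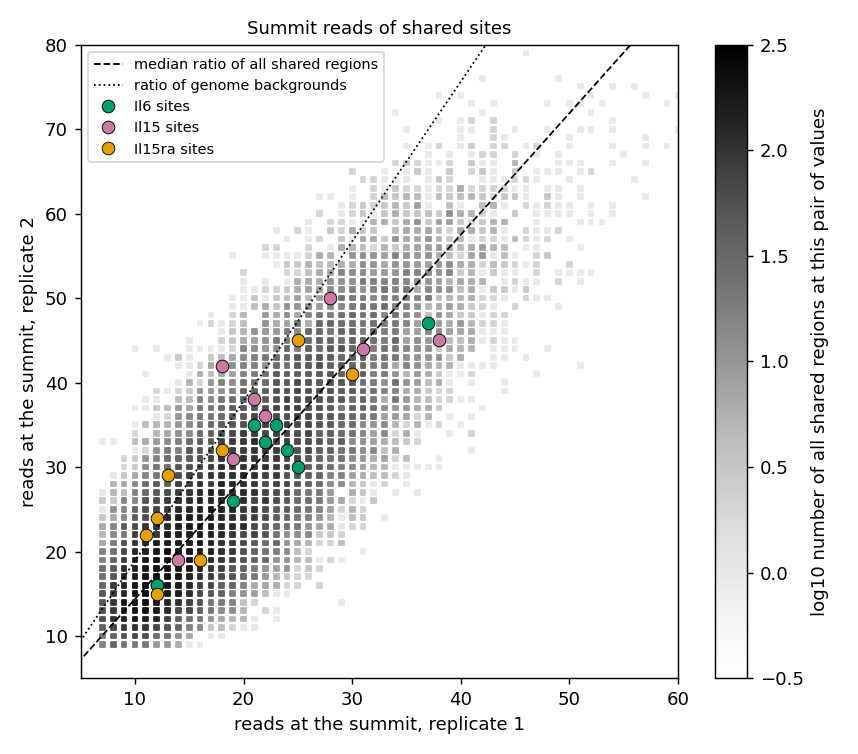
Reads at the summit in replicate 1 and replicate 2 for the shared sites of Il6, Il15 and Il15ra (coloured points) over all shared regions with up to 60 reads in replicate 1 and 80 in replicate 2 (grey, darker for more regions); the dashed line is the median ratio of all shared regions, 1.44, and the dotted line the ratio of genome-wide backgrounds, 1.89. The member sites lie within the grey cloud on both sides of the dashed line.

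The 7 sites found in replicate 2 alone held 12 to 31 reads there. Divided by the median ratio of 1.44, they would hold 8.35 to 21.6 reads in replicate 1. The fewest reads of any listed summit of replicate 1 with a like local background, within 10% of that of replicate 1 at the nearest shared site, were 8 for the Il15ra site and 12 for the Il6 and Il15 sites. Under both ratios, 1.44 and 1.89, the scaled number was above that floor at 3 sites, all of Il15. They were chr8:82402559-82402955 at the gene's end (21.6 and 16.4) and chr8:82376299-82376428 and chr8:82398703-82398798 inside it (18.1 and 13.8 each). At the other 4 sites the scaled numbers lay on either side of the floor. These were both Il6 sites (15.3 and 11.6 each), chr8:82402334-82402413 of Il15 (13.2 and 10.1) and the Il15ra site (8.35 and 6.35). The scaled numbers leave out counting error, and the 7 sites were picked for being listed in replicate 2 alone. Each floor is the fewest reads among 4668 to 6556 listed summits, so it is a low bar. The share of all replicate 2 peaks without a partner that would pass it was not worked out. The 3 Il15 sites are therefore not set apart by passing it. Whether these sites were less open in replicate 1 was not tested.

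The labelled cell type was checked against marker genes by whether a shared region reached within 1 kb of a gene end, as it did at 47.8% of all coding genes. Of 18 marker genes of cross-presenting (cDC1) dendritic cells, 12 had such a region. Clec9a, Batf3, Cd8a, Itgae, Zbtb46 and Btla had none. In that order, their nearest shared regions were centred 1381, 1956, 4415, 2632, 3837 and 3490 bp from an end. Some markers of other cells without one had a shared region as near, such as Cd79a of B cells (1285 bp) and Sirpa of cDC2 (1325 bp). Of the markers of other cells, 3 of 4 of plasmacytoid dendritic cells, 4 of 5 of macrophages, 2 of 5 of T cells, 1 of 5 of cDC2, 1 of 4 of B cells, and 0 of 4 each of NK cells and neutrophils had one. Accessibility does not show expression, and the part that other cells may have in the members' sites was not tested.

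Genes that act with IL-6 and IL-15 were described by the same measure, a shared region within 1 kb of a gene end. Either end of a gene counted, so the region need not lie at its start. The values are those of the highest scoring such region. Of 9 IL-6 pathway genes 9 had one, beside 47.8% of all coding genes. The receptor alpha chain Il6ra had fold enrichments of 6.28 in replicate 1 and 6.20 in replicate 2, and gp130, encoded by Il6st, had 8.01 and 7.58. Stat3, the transcription factor that IL-6 activates, stood among the highest with 11.4 in each, and Jak1, a kinase used by both pathways, had 9.89 and 12.2. The lowest was the kinase gene Jak2 with 5.36 and 4.99. Socs3, a feedback inhibitor of gp130 signalling, had 7.56 and 8.49. The proteases Adam10 and Adam17, which can release the receptor from the cell surface, had 8.13 and 9.37 and 7.13 and 8.68.

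Of 9 IL-15 pathway genes 5 had an accessible end (55.6%), near the 47.8% of all coding genes. The receptor chains that receive IL-15 on responding cells, Il2rb and Il2rg, had none, nor had Il2ra, and their nearest shared regions were centred 1293, 5830 and 5471 bp from an end. Stat5b had none either, with the nearest centred at 1426 bp. That region is the one counted for its neighbour and relative Stat5a, with 8.60 and 8.92. These genes thus differ here by the 1 kb rule only. The kinase gene Jak3 had the lowest values, 5.81 and 5.36. The feedback genes Socs1 and Cish had 6.01 and 6.94 and 8.65 and 9.86. With a window of 2 kb the count was 7 of 9, where Il2rg and Il2ra still had none by the distances above, and 52.3% of all coding genes had one.

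All 10 of the listed regulators of Il6 and Il15 had an accessible end, beside 47.8% of all coding genes. They were the NF-kB subunit genes Rela (6.02 and 7.74), Rel (7.50 and 7.22) and Nfkb1 (4.50 and 5.07), Cebpb (6.42 and 5.82), which encodes a C/EBP factor, and Nfkbiz (7.76 and 5.71), a co-regulator of Il6 transcription. Irf1, which takes part in the induction of Il15, had the highest value in replicate 1 (8.44, with 7.64 in replicate 2). Atf3, which encodes a repressor of Il6, had 6.32 and 6.87. Among proteins that act on the Il6 messenger RNA, Zc3h12a, which degrades it, had 7.25 and 6.53, and Arid5a, which stabilises it, had 7.39 and 8.06. Zfp36, a further RNA decay factor, had the lowest, 3.49 and 3.30. With the better-scoring 50% of each list, 6 of the 10 regulators kept a shared end region, beside 35.0% of all coding genes.

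**Figure D5:**
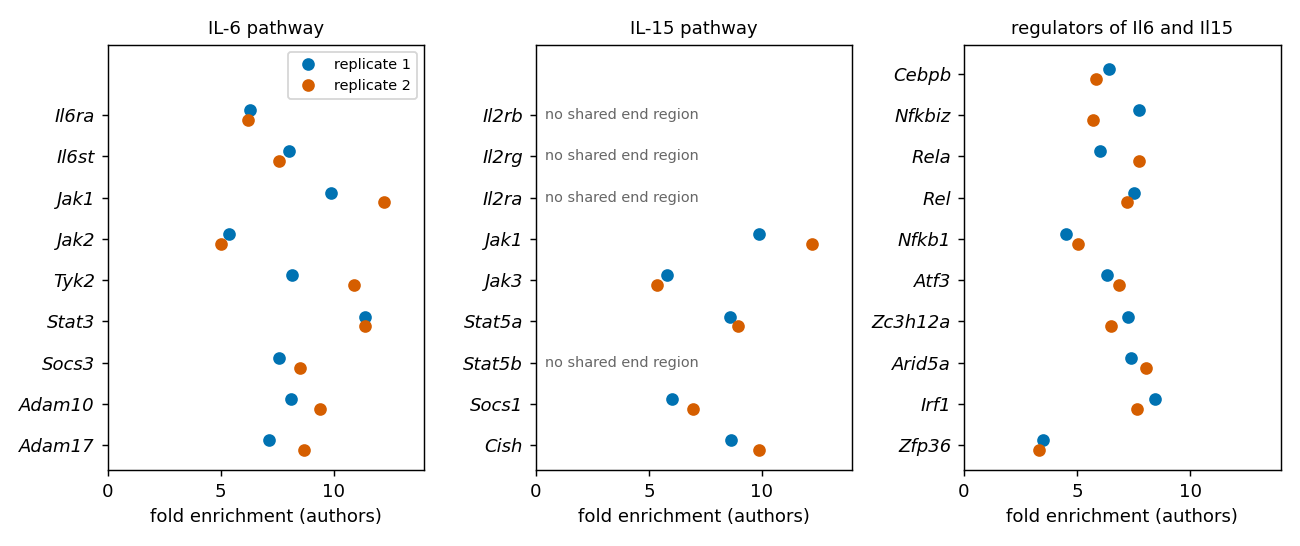
Fold enrichment at the highest scoring shared end region of the genes of the IL-6 pathway, the IL-15 pathway and the regulators of Il6 and Il15, in replicate 1 (blue) and replicate 2 (orange). The 4 genes without a shared end region, Il2rb, Il2rg, Il2ra and Stat5b, are all of the IL-15 list.

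Genes whose windows were most like those of the members were sought by 4 values, the number of peaks within 50 kb and the highest fold enrichment there (log2), in each of the 2 samples. Nearest to Il6 were Tnfrsf14, Fez2 and Zfp131, each with 9 peaks in replicate 1 and 11 in replicate 2, as Il6 had. Nearest to Il15 were Nelfcd and Ctsz, at equal distance, with 8 and 12 peaks, as Il15 had, and Mmaa with 8 and 11. Nelfcd and Ctsz lie on the same chromosome and had the same 4 values, so they need not be separate cases. Nearest to Il15ra, which had 9 and 9, were Il1a, Stx17 and Resf1 with the same numbers. Distances were from 0.0357 to 0.228 in units of the SD over coding genes.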

How the data were processed

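ATAC-seq libraries of 2 unstimulated samples were used, each with its own peak list. Per the submitters' processing notes, MACS2, HOMER 4.9.1, Picard 2.8.1, BWA 0.7.17 and Trimmomatic were used with mm10, their roles not being given; read shifts, duplicate removal and thresholds are not given in the sources used here and can affect weak peaks. The lists have the MACS2 layout, with 1 entry per summit. The deposited fold enrichment is a ratio to local background, the deposited −log10 p and −log10 q rate each summit, and the deposited score is −log10 q times 10. These are the authors' values per peak, used to describe, rank or filter within a list.

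Summits of a peak were joined, keeping the highest score. Summit reads were solved from the fold and the Poisson p; for 100% of summits, whole reads gave back the deposited −log10 p to within 0.002. The median summit held 17 reads in replicate 1 and 22 in replicate 2, and the fewest were 7 and 9. Where no peak is listed, a site was below detection at this depth, which does not show it closed. Genes are those of RefSeq for GRCm38.p6. Python 3.11.15, numpy 2.4.6, pandas 2.3.3, scipy 1.17.1 and matplotlib 3.10.9 were used, and read recovery and overlaps were tested on simulated data. The members, gene lists and motifs were chosen with earlier results of these data known. Genes named were the members, coding genes in their windows, listed pathway genes and the 3 genes nearest each member in the 4 values; further pathway genes were named after their values were seen. Alternatives varied the windows, the overlap, the score floor and the replicates.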

Additional observations from a re-analysis of the deposited data

How the results depend on the processing

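Of 57 alternatives, 48 kept a count within 1.5 times, or a value within 1 SD of the replicates, of the one reported. The number of shared sites around Il15ra depended most on the rule. It was 2 with a window of 20 kb, 3 with the better-scoring 50% of each list and 1 when each site was given to its nearest coding gene end, against 8. The same settings left 6, 6 and 7 for Il6 and 8, 6 and 8 for Il15. With the better-scoring 50% of each list, Il6 and Il15 kept a shared end site and Il15ra did not. At that setting 6 of 10 regulators had one, beside 35.0% of all coding genes. Averaging the summits of a peak in place of the highest one moved 4 fold enrichments past the spread between replicates, such as the Il15 end site in replicate 2 (5.83, against 6.91), and gave 4.76, against 5.64, at an Il15 site found in replicate 2 only.

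From 1 replicate alone, Il6 had 9 to 11 sites, Il15 8 to 12 and Il15ra 9 to 9. The 3 members had an accessible end from either one, as did 9 IL-6 pathway genes, 5 IL-15 pathway genes and 10 regulators. Of all coding genes, 48.9% had one from replicate 1 alone and 50.3% from replicate 2 alone. The share of peaks with a partner needs both lists. No paired analysis was possible because the values come from no test and only 1 group has files here. Depth limits the weakest sites, with 11 reads at the Il15ra start in replicate 1.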
